A study of Mus musculus with 24 samples.

Results

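The expression of 31 genes of cholesterol synthesis, sterol sensing, sterol transport and sterol efflux was followed through RNA-seq of P815, a mouse mastocytoma cell line. The genes were taken by symbol from a table of 55385 genes: 7 enzymes of the mevalonate and isoprenoid steps, 11 enzymes from squalene to sterol, 4 sterol sensing genes, 2 genes of intracellular transport and storage, and 7 LXR (liver X receptor) genes and LXR targets. The 24 libraries formed 8 groups of 3. NC cells were transfected with a negative control vector and SH cells with a short hairpin RNA against mouse Esr1, the gene of estrogen receptor alpha; neither has a stated treatment time. NC_E2 and SH_E2 cells carried the same vectors and received β-estradiol (E2) for 24 h. ICI and Tamo cells received ICI-182780 (fulvestrant, a receptor degrader) or tamoxifen (a selective receptor modulator) for 24 h, and ICI_E2 and Tamo_E2 cells received the same agent together with E2 for 24 h. All groups were grown in medium with fetal bovine serum, which carries cholesterol and lipoproteins of its own. No dose, hairpin sequence, clone or selection is given. The labels of the inhibitor groups name no vector, and no group is labelled as a vehicle control, so the agent and the vector cannot be told apart where an inhibitor arm is set against NC. Whether the 3 libraries of a group were separate cultures is not stated, so a p-value here reflects spread that may be technical.

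Animal cells build cholesterol from acetyl-CoA through mevalonate, farnesyl diphosphate, squalene and lanosterol, and take up more of it from lipoproteins. When membrane sterol falls, the escort protein encoded by Scap carries the transcription factor precursor encoded by Srebf2 to the Golgi, where it is cut, and the freed factor induces most genes of the route at sterol regulatory elements, commonly beside a CCAAT box bound by the factor NF-Y. The proteins encoded by Insig1 and Insig2 hold this escort complex back when sterol is plentiful. Oxysterols activate the LXR receptors encoded by Nr1h2 and Nr1h3, which raise export of cholesterol through the transporters encoded by Abca1 and Abcg1.

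The stretch of 250 bases before the RefSeq transcription start is shown for 5 genes on which the results below turn, chosen after their values were seen. Of these, 4 were low in replicate 1 of the SH arm (Hmgcs1, Mvd, Insig1, Cyp51). The other 1 (Ebp) was higher in the SH than in the NC arm. Sequences are from RefSeq on GRCm38.p6, printed 5′ to 3′ on the strand of the gene. Capitals mark the sterol regulatory element TCACNCCAC or a CCAAT box, read on either strand (ATTGG is CCAAT on the other strand); the motifs do not overlap. The windows lie at chr13:119690101-119690350 (plus strand), chr8:122443423-122443672 (minus), chr5:28071162-28071411 (plus), chr5:4104698-4104947 (minus) and chrX:8193513-8193762 (minus). Those of Insig1 and Cyp51 reach into the genes as placed in the expression data (Insig1 from 28071363, Cyp51 up to 4104746). The CCAAT box of Cyp51 lies in that part.
Hmgcs1: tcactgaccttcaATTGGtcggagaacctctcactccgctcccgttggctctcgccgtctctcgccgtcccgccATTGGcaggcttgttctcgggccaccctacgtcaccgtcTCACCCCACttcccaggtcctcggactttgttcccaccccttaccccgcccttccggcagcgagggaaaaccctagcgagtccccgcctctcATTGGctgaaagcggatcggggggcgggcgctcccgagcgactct
Mvd: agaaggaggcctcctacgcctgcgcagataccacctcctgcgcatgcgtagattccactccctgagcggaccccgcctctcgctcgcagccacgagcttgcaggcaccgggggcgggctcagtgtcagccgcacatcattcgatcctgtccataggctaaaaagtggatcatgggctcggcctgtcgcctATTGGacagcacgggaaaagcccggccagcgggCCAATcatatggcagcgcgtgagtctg
Insig1: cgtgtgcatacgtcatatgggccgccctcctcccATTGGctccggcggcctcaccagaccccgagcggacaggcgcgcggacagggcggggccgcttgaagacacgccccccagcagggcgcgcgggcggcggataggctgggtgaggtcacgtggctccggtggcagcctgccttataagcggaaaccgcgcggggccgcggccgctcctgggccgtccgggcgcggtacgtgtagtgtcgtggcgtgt
Cyp51: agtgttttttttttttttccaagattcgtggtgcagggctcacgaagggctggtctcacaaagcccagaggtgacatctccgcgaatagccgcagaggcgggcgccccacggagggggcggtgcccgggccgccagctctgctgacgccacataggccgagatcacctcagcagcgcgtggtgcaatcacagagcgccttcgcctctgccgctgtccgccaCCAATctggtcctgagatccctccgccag
Ebp: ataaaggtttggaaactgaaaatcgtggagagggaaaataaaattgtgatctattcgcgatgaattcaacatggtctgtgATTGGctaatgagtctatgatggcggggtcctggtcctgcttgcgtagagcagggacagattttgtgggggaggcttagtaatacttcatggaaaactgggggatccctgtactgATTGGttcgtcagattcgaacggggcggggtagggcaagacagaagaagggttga

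Promoters of 26 of the 31 genes were in the table; Fdft1, Stard4, Abcg1, Sqle and Fdps had no entry. At least 1 CCAAT box lay in the 250 bases of 20 of these 26 genes, against 37.5% of all 27025 genes in the table. A gene can have several promoters: counted by promoter, it was 20 of 35, against 33.85% of 32851. The strict sterol regulatory element lay in 1 of the 26 (Hmgcs1, from 137 to 129 bases before the start), against 1.22% of all genes. The window of Hmgcs1 held 3 CCAAT boxes, those of Mvd and Ebp 2 each, and those of Insig1 and Cyp51 1 each. The CCAAT box was thus present both in genes that were low and in a gene that was high in the SH arm. A match describes the letters and is not evidence of binding.

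Library totals ran from 42.1 to 68.8 M estimated counts (median 54.2), and 12183 genes with 1 FPKM (fragments per kilobase of transcript, scaled to library size) or more in at least 3 libraries were tested. Mitochondrial genes took 4.76% to 5.95% of the counts. Of 10 mast cell markers 9 reached 1 FPKM, with a summed level of 772 to 1199 FPKM; T cell and B cell markers summed to at most 0.256 FPKM. The macrophage list summed to 20.8 to 36.2 FPKM. Of its 5 genes, Cd68 had 16.3 to 25.2 FPKM, Lyz2 3.04 to 13.6 and Adgre1 0.124 to 1.61, while Csf1r and Mrc1 stayed under 0.1. Fibroblast markers summed to at most 2.04 FPKM and neutrophil markers to at most 0.11. Esr1 itself was low, at 0.161 to 0.520 FPKM. It was lower in the SH than in the NC arm by a mean log2 difference of -0.38, which an exact permutation test stratified by E2 did not separate from 0 (two-sided p = 0.145; the smallest this design allows is 0.005), so the hairpin's effect on its target was not shown. Unless another test is named, log2 differences below are edgeR quasi-likelihood estimates ± SE with Benjamini-Hochberg adjusted p over the 12183 genes, and a gene was called at an adjusted p under 0.05.

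Most synthesis genes were well expressed in P815, while the exporter genes Abca1 and Abcg1 and the synthesis gene Tm7sf2 were low. In the mevalonate branch, Hmgcs1, which makes the HMG-CoA from which mevalonate is formed, had 17.95 to 75.5 FPKM (median 61.8) over the 24 libraries. Fdps, which makes farnesyl diphosphate, had 35.4 to 74.6 FPKM (median 61.7), Idi1, the isopentenyl diphosphate isomerase, 17.3 to 70.2 FPKM (median 48.5), and Mvk, the mevalonate kinase, the lowest median of the branch, 3.16 to 12.3 FPKM (median 10.5). Cyp51, the lanosterol demethylase, had the highest median of all 31 genes, 54.8 to 148 FPKM (median 129). Msmo1, a methylsterol oxidase of the branch from squalene to sterol, had 33.5 to 76.6 FPKM (median 65.8). The low end of the same branch was held by Hsd17b7, a ketoreductase of sterol demethylation, with 1.58 to 7.405 FPKM (median 4.29), and Tm7sf2, a sterol reductase, with 0.926 to 3.05 FPKM (median 1.75). The medians of this branch thus differed more between genes than any of its genes did between libraries.

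Among the sensing genes Insig1 was the most abundant, with 21.5 to 72.5 FPKM (median 52.4), followed by Srebf2 with 20.8 to 57.4 FPKM (median 38.7), Insig2 with 7.83 to 11.9 FPKM (median 9.66) and Scap with 4.92 to 9.67 FPKM (median 6.41). Stard4, a soluble sterol carrier, had 31.9 to 61.4 FPKM (median 51.97), and Soat1, which esterifies cholesterol for storage, 8.13 to 14.5 FPKM (median 11.99). Lpcat3, a phospholipid acyltransferase that is an LXR target, was the steadiest gene of the set at 27.2 to 35.4 FPKM (median 31.1), a coefficient of variation of 7.28% over all libraries. Nr1h2, which encodes LXR beta, had 11.2 to 19.6 FPKM (median 13.96), and Apoe, the apolipoprotein that accepts exported sterol, 7.22 to 19.97 FPKM (median 9.58). Abcg1, an exporter to lipoprotein particles, had 1.497 to 3.95 FPKM (median 2.22), and Mylip, whose protein marks lipoprotein receptors for degradation, 0.642 to 1.74 FPKM (median 1.11). Abca1 and Nr1h3 did not pass the filter on low values and were not tested. Abca1, the exporter to lipid-poor apolipoprotein, lay between 0.0864 and 0.292 FPKM (53 to 196 estimated counts), and Nr1h3, which encodes LXR alpha, between a placeholder for no signal in 8 libraries and 0.530 FPKM (0 to 64 estimated counts). In bulk RNA, fewer cells expressing a gene and less RNA per cell cannot be told apart.

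**Figure D1:**
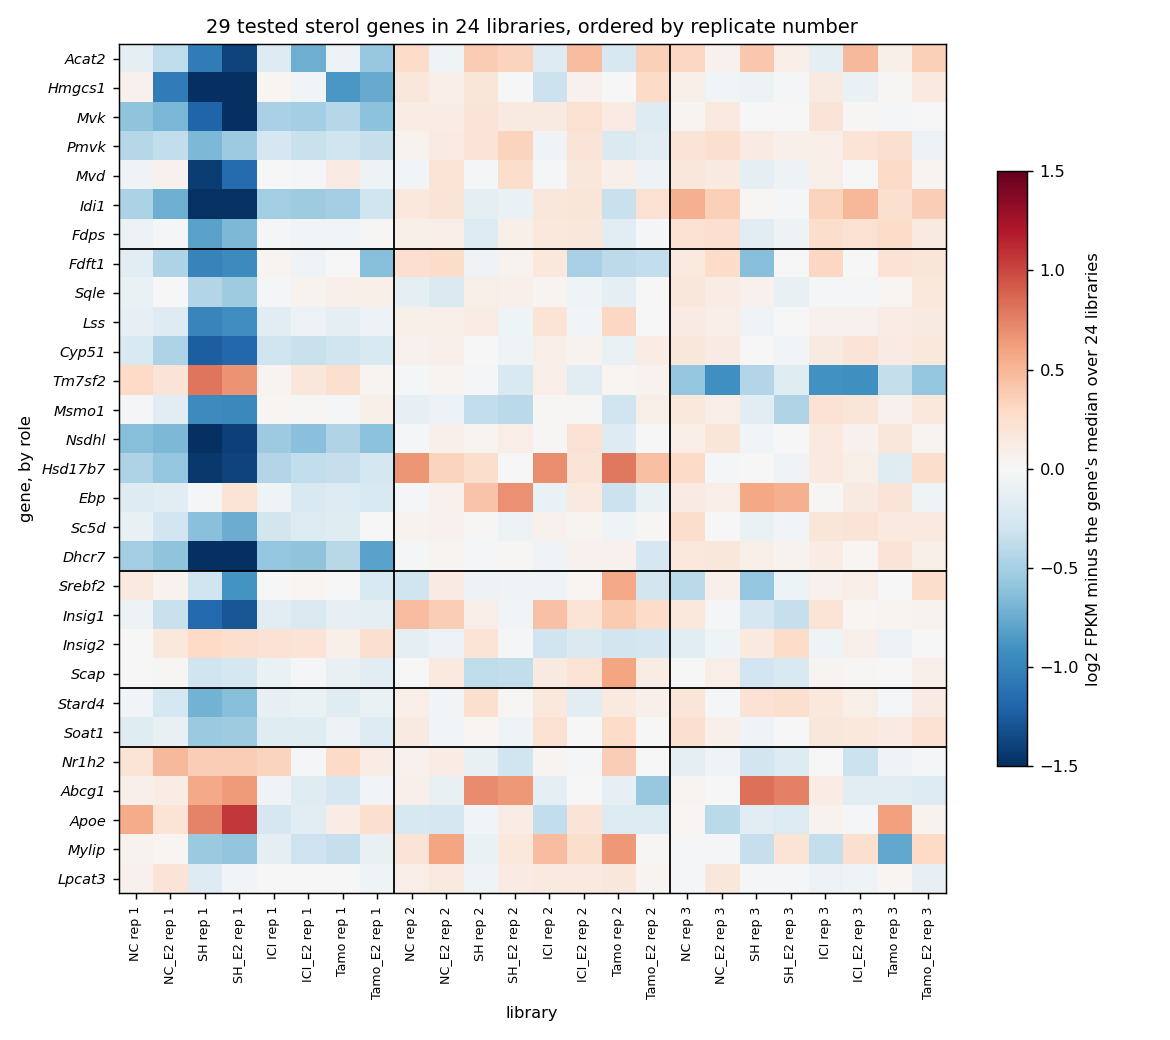
Each row is 1 of the 29 tested genes, in blocks by role, and each column 1 library, ordered by replicate number and then by group; color is log2 FPKM minus the gene's median over 24 libraries. The SH and SH_E2 columns of replicate 1 are the bluest of the synthesis blocks, and Abcg1 is red in all 6 SH arm columns.

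E2 changed none of these genes detectably in any arm. With edgeR 0 of 29 tested members were called for E2 in NC, in SH, in ICI or in Tamo, where 0% of all genes were called, and 0 for the mean over the 4 arms, where 0.0575% of all genes (7) were called. None of the 29 had an unadjusted p under 0.05 in any of these 5 comparisons, and DESeq2, limma and the fit with the replicate number as a block also called 0. The median log2 difference of the members was -0.028 in NC, -0.020 in SH, 0.020 in ICI and -0.043 in Tamo; for all genes tested it was -0.00094, -0.0024, -0.0029 and -0.012. For the mean over the arms the members ran from -0.15 to 0.16 (Mylip), and the 95% intervals of all 29 lay within 1 log2 unit of 0. Within single arms the intervals were wider: 25 of 29 lay within 1 log2 unit in NC, 26 in SH, 27 in ICI and 25 in Tamo. Hmgcs1 had the largest difference in NC, -0.36, where 1 of 3 libraries was low: it read 64.8, 69.7 and 65.4 FPKM in NC and 29.9, 66.1 and 59.9 in NC_E2. The E2 effect in SH, ICI or Tamo minus that in NC also gave 0 calls among the members (0% of all genes, 0 at an unadjusted p under 0.05 by edgeR, 0 called by DESeq2 and limma), with wider intervals, of which 18, 18 and 15 of 29 lay within 1 log2 unit.

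The antiestrogens gave no called member either. ICI against NC called 0 of 29 without E2 (0.00821% of all genes), with E2 (0%) and over both (0.00821%). Tamo against NC called 0 of 29 without E2 (0.00821%), with E2 (0%) and over both (0%), and Tamo against ICI 0 of 29 in each of the same 3 comparisons (0%). DESeq2, limma and the replicate block also called 0 in all 9. At an unadjusted p under 0.05, edgeR left 0 members in 7 of the 9 and 1 in each of the other two: Lpcat3 in Tamo_E2 against NC_E2, and Abcg1 in Tamo against NC over both, at -0.24 ± 0.090. Over both E2 conditions the members ran from -0.11 (Nr1h2) to 0.10 in ICI and from -0.24 (Abcg1) to 0.13 in Tamo, and all 29 intervals lay within 1 log2 unit of 0 in both. The medians were 0.008 and 0.0005. Both comparisons share the NC libraries with each other and with the hairpin comparison. Differences smaller than these intervals may have been missed with 3 libraries a group.

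**Figure D2:**
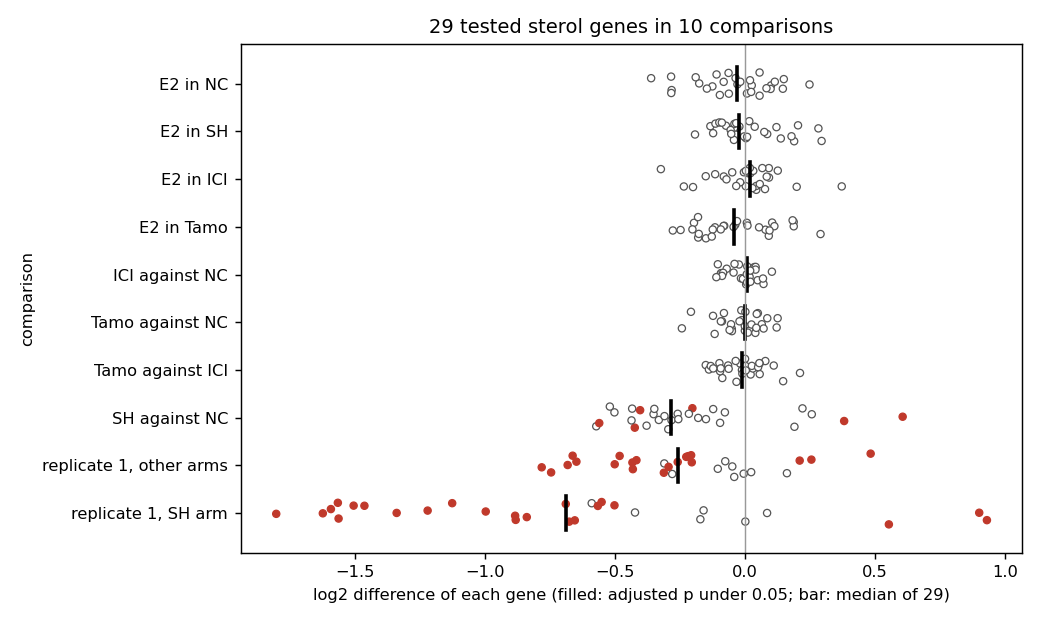
The x axis gives the log2 difference of each of the 29 tested genes (points; filled red where the adjusted p is under 0.05) in 10 comparisons on the y axis, with a black bar at the median. E2, ICI and Tamo rows hold no filled point; the SH row holds 6, and the replicate 1 rows 20 (other arms) and 23 (SH arm).

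A few of these genes differed between the SH and NC arms, and the exporter gene Abcg1 had the smallest adjusted p. Over both E2 conditions 6 of 29 members were called in SH against NC, 2 higher and 4 lower, where 20.7% of all genes were called (10.6% higher, 10% lower). In this fit the share of the members, 6 of 29, is close to the background; with the replicate number as a block, described further on, it was 17 of 29 where 35.2% of all genes were called. The median of the 29 was -0.28 on the log2 scale, beside -0.0040 for all genes tested, and 24 of the 29 lay below 0. Without E2 alone SH against NC called 1 of 29 (Abcg1; 9.07% of all genes), and with E2 2 of 29 (Abcg1 and Msmo1; 9.59%).

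Abcg1 (ENSMUSG00000024030, chromosome 17, 31057675 to 31117988, GRCm38) separated the arms without overlap. It read 3.29, 3.63 and 3.95 FPKM in SH and 3.46, 3.49 and 3.75 in SH_E2, against 2.33, 2.33 and 2.28 in NC and 2.41, 2.05 and 2.22 in NC_E2. All 6 SH arm libraries also lay above all 12 inhibitor libraries, which ran from 1.497 to 2.41 FPKM. Over both conditions Abcg1 was higher by 0.61 ± 0.090, adjusted p = 5.09e-05, a rise of 52.4%, and by 0.59 without and 0.63 with E2. The estimate was 0.68 ± 0.11 in replicates 2 and 3 alone (adjusted p = 0.00164). No other LXR gene was called higher: Lpcat3 fell by 0.20 ± 0.062 (adjusted p = 0.0263), while Apoe (0.26 ± 0.22), Mylip (-0.38 ± 0.23) and Nr1h2 (-0.18 ± 0.13) were not called. Lpcat3 lost its call in replicates 2 and 3 alone (-0.15, adjusted p = 0.25). It also lost it with limma (adjusted p 0.0899 and 0.0908 for the 2 pseudocounts), and without any 1 of NC replicate 2, NC_E2 replicate 3, SH replicate 1, SH_E2 replicate 1 or SH_E2 replicate 3 (adjusted p 0.0539 to 0.0786), and 10.2% of its exon bases overlap Emg1 on the other strand, whose reads cannot be told apart here.

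In the sterol branch, 1 enzyme gene rose and 1 fell. Ebp (ENSMUSG00000031168, chromosome X, 8185329 to 8193512), the sterol isomerase, read 13.6, 18.4 and 20.5 FPKM in SH and 15.7, 22.02 and 19.8 in SH_E2, against 11.9, 13.4 and 14.9 in NC and 12.2, 14.3 and 14.6 in NC_E2. Only SH replicate 1 lay within the range of the NC arm, and Ebp was higher by 0.38 ± 0.13, adjusted p = 0.0358. The rise was 0.44 ± 0.12 in replicates 2 and 3 alone (adjusted p = 0.0271), but the call is fragile: it was lost without any 1 of replicates 1 or 2 of NC, 1 or 2 of NC_E2, 2 or 3 of SH, or 2 or 3 of SH_E2 (0.31 to 0.40, adjusted p 0.0526 to 0.101). Msmo1 (ENSMUSG00000031604, chromosome 8, 64718139 to 64733792) read 33.9, 50.9 and 58.5 FPKM in SH and 33.5, 49.8 and 48.04 in SH_E2, all 6 below the 65.1, 60.6 and 73.3 of NC and the 58.8, 61.8 and 70.4 of NC_E2. It fell by 0.56 ± 0.12 over both (adjusted p = 0.00274), and by 0.42 ± 0.11 in replicates 2 and 3 alone (adjusted p = 0.0253). With E2 alone its call was lost without any 1 of NC_E2 replicates 1, 2 or 3 or SH_E2 replicates 1 or 3 (-0.66 to -0.41, adjusted p 0.0536 to 0.195). The remaining 9 genes of this branch were not called.

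Scap (ENSMUSG00000032485, chromosome 9, 110333288 to 110378776), the escort of the sterol regulatory factor, read 5.22, 4.92 and 5.24 FPKM in SH and 5.35, 4.95 and 5.46 in SH_E2, below every library of NC (6.41, 6.41 and 6.404) and NC_E2 (6.47, 7.09 and 6.86). It fell by 0.40 ± 0.096 (adjusted p = 0.00471) and by 0.43 ± 0.11 in replicates 2 and 3 alone (adjusted p = 0.0194). A transcript model on the other strand, 5830462I19Rik, shares 13.2% of its exon bases. The factor's own gene, Srebf2, read 31.6, 36.9 and 26.01 FPKM in SH and 20.8, 37.3 and 36.5 in SH_E2 against 42.8, 31.5 and 29.3 in NC and 40.1, 42.3 and 40.8 in NC_E2; the arms overlapped and it was not called (-0.31 ± 0.15, adjusted p = 0.153). Insig1 and Insig2 were not called by edgeR without the block (-0.57 ± 0.22, adjusted p = 0.0695, and 0.19 ± 0.10, adjusted p = 0.218). DESeq2, also without the block, called Insig1 (-0.57, adjusted p = 0.0396). With edgeR Insig1 passed when SH replicate 2 (-0.72, adjusted p = 0.0288) or SH_E2 replicate 2 (-0.71, adjusted p = 0.0297) was left out.

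In the mevalonate branch all 7 estimates lay below 0 and 1 was called. Fdps read 35.4, 53.6 and 55.2 FPKM in SH and 38.8, 65.5 and 58.5 in SH_E2, against 58.2, 65.6 and 72.4 in NC and 60.4, 66.3 and 73.4 in NC_E2, and was lower by 0.42 ± 0.14 (adjusted p = 0.0313). Its lowest values in the SH arm were both replicate 1 libraries. In replicates 2 and 3 alone Fdps was no longer called (-0.31 ± 0.11, adjusted p = 0.0681). The call was also lost without any 1 of NC or NC_E2 replicates 2 or 3, SH replicate 1 or SH_E2 replicate 1 (-0.43 to -0.32, adjusted p 0.052 to 0.0799). A same-strand model, Gm43738, shares 26.7% of its exon bases. The 3 members whose 6 SH arm libraries did not overlap the 6 NC arm libraries were Abcg1, Msmo1 and Scap, and 13.8% of all genes did not overlap.

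Libraries with the same replicate number varied together, and taking that number into the model as a block raised the calls to 17 of 29 over both conditions, 3 higher and 14 lower, where 35.2% of all genes were then called. All 6 genes called without the block were among them. The other 11 were Insig2, higher by 0.19 (adjusted p = 0.0235), and 10 lower genes: Insig1 (-0.62, adjusted p = 1.54e-04), Idi1 (-0.57), Fdft1 (-0.51), Hsd17b7 (-0.50), Mvd (-0.49), Cyp51 (-0.41), Dhcr7 (-0.38), Lss (-0.37), Sc5d (-0.31) and Soat1 (-0.27), with adjusted p up to 0.043. Without and with E2 the block gave 11 (21.1% of all genes) and 7 (21.9%) calls. None of those 11 was called in replicates 2 and 3 alone, where the count was 4 of 29 (16.5% of all genes): Abcg1, Ebp, Msmo1 and Scap, with Insig1 at -0.43 (adjusted p = 0.0518) and Idi1 at -0.43 (adjusted p = 0.0608) nearest to the threshold. There the median of the 29 was -0.15. Without E2 and with E2 these replicates gave 1 of 29 each (6.3% and 6.13% of all genes), in both cases Abcg1. Stard4 changed sign, from -0.095 in all libraries to 0.067 in replicates 2 and 3, 0.034 without SH replicate 1 and 0.017 without SH_E2 replicate 1, and was called in none of these. Markers of the mast cell list differed between the arms in both directions. Their sum was 980 to 1199 FPKM in the SH and 772 to 1024 in the NC arm, with Cpa3, a mast cell protease, at 463 to 586 against 183 to 306; Srgn, a granule proteoglycan, was at 87.1 to 109 against 135 to 165, Fcer1g, a receptor subunit, at 106 to 184 against 146 to 221, and Tpsb2, a tryptase, at most at 0.122 against 0.443 to 1.18. The macrophage list summed to 29.8 to 36.2 against 22.4 to 26.0, with Lyz2 at 9.79 to 13.6 against 3.39 to 5.17 and Csf1r and Mrc1 under 0.1. Their part in the result was not tested.

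**Figure D3:**
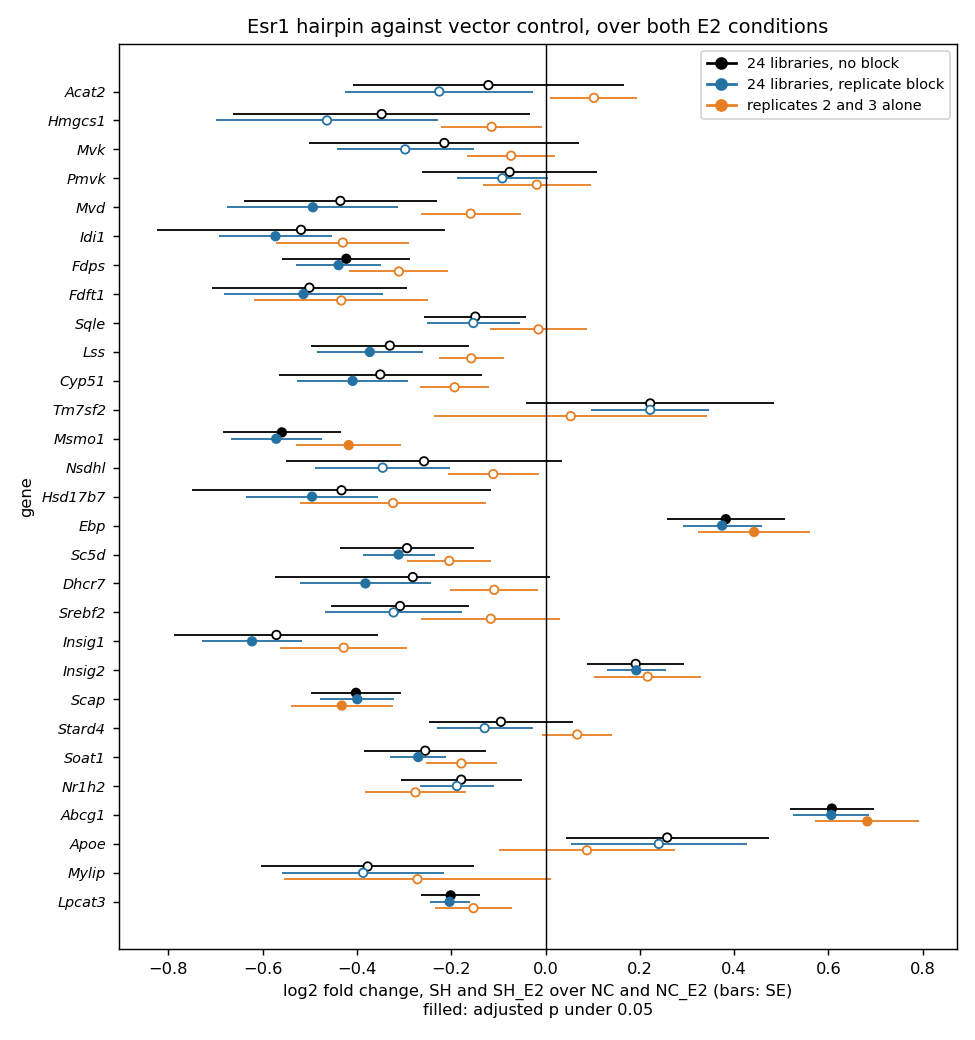
The x axis gives the log2 fold change of SH and SH_E2 over NC and NC_E2 for each of the 29 tested genes on the y axis, with SE bars, in 3 fits (black, all libraries; blue, with the replicate number as a block; orange, replicates 2 and 3 alone); filled points have an adjusted p under 0.05. Abcg1, Ebp, Msmo1 and Scap are filled in all 3 fits.

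The largest count of called members came from replicate 1 against replicates 2 and 3. Its 95% intervals were also narrower, 0.18 log2 units on either side (median over the members), against 0.39 for SH against NC over both E2 conditions. The first width is from a model that held the replicate number and the second from a model without it. The counts therefore do not rank replicate number above treatment. Replicate 1 of all groups was compared with replicates 2 and 3, with the groups in the model; what the number stands for is not stated in the labels. In replicate 1, 25 of 29 members were called, 21 lower and 4 higher, where 44.1% of all genes were called (21.5% lower, 22.6% higher). The median of the members was -0.38, beside 0.016 for all genes. Without the SH arm the count was 20 of 29 (all among the 25; 37.8% of all genes), 17 lower and 3 higher, so the difference was not confined to the hairpin libraries; Mvd, Msmo1, Fdft1, Mylip and Apoe were the 5 that lost their call. Replicate 1 totals were lower, 42.1 to 57.7 M estimated counts, against 44.7 to 59.4 M in replicate 2 and 51.4 to 68.8 M in replicate 3, and the sum over the mast cell markers was higher, 999.9 to 1199 FPKM against 772 to 1061, while Kit on the same list lay at 119 to 136 against 98.3 to 175. Their part in the result was not tested.

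All 7 genes of the mevalonate branch were lower in replicate 1. Idi1 had the largest fall of all 29, -0.94 ± 0.094 (adjusted p = 4.12e-07), and was lowest in replicate 1 in all 8 groups. Outside the SH arm it read 29.1 to 39.5 (median 33.9) FPKM in the 6 replicate 1 libraries and 38.6 to 70.2 (median 57.2) in the 12 others, so the ranges met only at their ends. Mvk fell by 0.85 ± 0.11 (adjusted p = 1.01e-05), and its ranges outside the SH arm did not overlap, 6.52 to 7.79 (median 7.13) against 9.18 to 12.3 (median 11.3). Hmgcs1 (-0.77), Acat2, the acetoacetyl-CoA thiolase (-0.74), Pmvk, the phosphomevalonate kinase (-0.53), Mvd, the diphosphomevalonate decarboxylase (-0.37), and Fdps (-0.32) fell as well. Without the SH arm Hmgcs1 was at -0.49 and Fdps at -0.21, both still called. Mvd was not called outside the SH arm, where the difference was -0.10 ± 0.059, adjusted p = 0.185, with 30.7 to 35.3 (median 32.04) FPKM in replicate 1 and 30.6 to 39.3 (median 34.2) in the others. Over all arms, Mvd also lost its edgeR call with upper quartile scaling (adjusted p = 0.0597) or no filter (0.072). The same held in the libraries without E2 (0.208) or with E2 (0.156), and without the NC (0.0618) or ICI arm (0.0523). Hmgcs1 (0.137) and Acat2 (0.135) lost theirs in the libraries without E2.

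In the branch from squalene to sterol 9 of 11 fell and 1 rose. Hsd17b7 fell by 0.92 ± 0.11 (adjusted p = 2.80e-06), Nsdhl, the dehydrogenase of sterol demethylation, by 0.89 ± 0.11 (adjusted p = 5.20e-06), and Dhcr7, which forms cholesterol from its dehydro precursor, by 0.88 ± 0.11 (adjusted p = 4.53e-06). Each was lowest in replicate 1 in all 8 groups. Outside the SH arm Nsdhl read 22.2 to 25.9 (median 22.9) FPKM in replicate 1 against 30.9 to 41.2 (median 37.1), Dhcr7 9.96 to 13.1 (median 11.5) against 14.6 to 19.8 (median 18.2), and Hsd17b7 2.87 to 3.57 (median 3.25) against 3.77 to 7.405 (median 5.19), with no overlap in any of the 3. Cyp51 (-0.61), Lss, the lanosterol synthase (-0.43), Fdft1, the squalene synthase (-0.42), Sc5d, a sterol desaturase (-0.38), Ebp (-0.29) and Msmo1 (-0.21) were lower by less. Without the SH arm Msmo1 (-0.079, adjusted p = 0.151) and Fdft1 (-0.28, adjusted p = 0.0777) were no longer called, and Lss was at -0.26. Fdft1 shares 18.3% of its exon bases with Ctsb on the other strand. Tm7sf2 was the exception, higher by 0.59 ± 0.093, adjusted p = 5.28e-05, and higher also outside the SH arm (0.48 ± 0.096); 12.1% of its exon bases overlap Vps51 on the same strand. Sqle, the squalene epoxidase, was not called (-0.13 ± 0.074, adjusted p = 0.155).

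Among the sensing and transport genes Insig1 fell by 0.58 ± 0.081 (adjusted p = 1.58e-05), Scap by 0.15 (adjusted p = 0.0446), Stard4 by 0.38 (adjusted p = 7.08e-04) and Soat1 by 0.37 ± 0.045 (adjusted p = 3.56e-06). The call of Scap was lost with upper quartile scaling, no filter, limma, either E2 condition alone, or without the NC, ICI or Tamo arm (-0.17 to -0.086, adjusted p 0.0736 to 0.295), and Stard4 was at -0.23 without the SH arm, still called. Insig2 moved the other way, higher by 0.21 ± 0.047, adjusted p = 0.00119. Srebf2, whose product drives most of these genes, was not called (-0.13 ± 0.11, adjusted p = 0.36). Of the LXR genes Nr1h2 (0.30 ± 0.058, adjusted p = 4.38e-04) and Apoe (0.37 ± 0.14, adjusted p = 0.0406) were higher, Mylip was lower (-0.38 ± 0.13, adjusted p = 0.027), and Abcg1 (-0.024 ± 0.061, adjusted p = 0.784) and Lpcat3 (-0.075 ± 0.032, adjusted p = 0.0676) were not called. Apoe was not called outside the SH arm (0.16 ± 0.14, adjusted p = 0.378), and Mylip lost its call without the SH arm (-0.31, adjusted p = 0.135). In all, 11 members had replicate 1 lowest in all 8 groups, where 7.63% of all genes did, and 0 members had it highest in all 8, where 8.59% of all genes did.

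Replicates 2 and 3 lay closer together. Between them 3 of 29 members were called, all higher in replicate 2, where 19.4% of all genes were called (10.6% higher, 8.78% lower): Tm7sf2 (higher in replicate 2 by 0.57 ± 0.11, adjusted p = 0.00204), Insig1 (higher by 0.29 ± 0.091, adjusted p = 0.0349) and Lpcat3 (higher by 0.11 ± 0.037, adjusted p = 0.0458). The median of the 29 was -0.055. This count depended on the libraries used: without the SH arm it was 12 of 29, 4 higher and 8 lower in replicate 2, where 27.4% of all genes were called, and 0 within the libraries without E2 (8.12% of all genes) or with E2 (1.21%). Insig1 and Lpcat3 lost their call without any 1 of the NC, ICI or Tamo arms, and Tm7sf2 without the NC arm (adjusted p = 0.0502).

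For many of the synthesis genes the fall in replicate 1 was deeper in the SH arm. Whether replicate 1 differed more from replicates 2 and 3 in SH and SH_E2 than in the other 6 groups was tested as a difference of differences, a comparison added after the data had been seen. In this comparison 16 of 29 members were called and all 16 were lower, where 4.33% of all genes were called (1.54% higher, 2.79% lower). The median of the 29 was -0.55, beside -0.0088 for all genes. On the SH arm side the test rests on 2 replicate 1 libraries, treated as independent. They deviated together (r = 0.572, the highest of the same-numbered pairs), so the p-values of this test may be too small. The 16 comprised 6 of 7 mevalonate genes, 8 of 11 sterol branch genes, 1 of 4 sensing genes, 1 of 2 transport and storage genes and 0 of 5 LXR genes. DESeq2 called 16, the same genes, and limma 15 of them. Of the 16, 8 remained called without the 3 SH libraries and 9 without the 3 SH_E2 libraries. Hmgcs1, Acat2, Idi1, Fdps, Hsd17b7, Sqle and Sc5d lost their call in both cases and Msmo1 without the SH libraries, while Mvd, Mvk, Dhcr7, Nsdhl, Cyp51, Lss, Insig1 and Stard4 kept it in both. Without the NC arm Acat2, Fdps, Hsd17b7 and Sc5d were also lost, and without the ICI arm Fdps, Hsd17b7, Sc5d and Sqle, and without the Tamo arm Sc5d; limma on log2(FPKM + 1) lost Hsd17b7. Within the SH arm 23 of 29 were called in replicate 1 (20 lower, 3 higher; 27.7% of all genes), and in the other arms 20 (17 lower, 3 higher; 37.2%).

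Hmgcs1 (ENSMUSG00000093930, chromosome 13, 119690379 to 119708260) showed the steepest difference. It read 18.8, 70.02 and 58.5 FPKM in SH and 17.95, 61.4 and 60.3 in SH_E2, where the first value of each is replicate 1. In ICI it read 63.04, 49.4 and 67.6, in ICI_E2 60.03, 64.8 and 57.6, in Tamo 33.7, 62.3 and 62.7 and in Tamo_E2 36.7, 75.5 and 68.4, besides the NC and NC_E2 values given above. Replicate 1 was thus low in NC_E2, SH, SH_E2, Tamo and Tamo_E2 and within the range of the other libraries in NC, ICI and ICI_E2, and both SH arm values were the lowest of the 24. The replicate 1 difference was -1.80 ± 0.26 in the SH arm and -0.48 ± 0.14 elsewhere, and the difference between them -1.32 ± 0.28, adjusted p = 0.0133. It was as large without the SH libraries (-1.33, adjusted p = 0.174) or without the SH_E2 libraries (-1.32, adjusted p = 0.149), but not called; the difference elsewhere was not called without the Tamo arm (-0.26, adjusted p = 0.236) or the NC arm (-0.44, adjusted p = 0.0744). An antisense model, Gm48342, shares 12.1% of the exon bases of Hmgcs1.

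Mvd (ENSMUSG00000006517, chromosome 8, 122433601 to 122443422) was low in the SH arm's replicate 1 libraries and in no others. It read 12.1, 31.8 and 29.3 FPKM in SH and 14.5, 38.9 and 30.7 in SH_E2, 31.2, 31.4 and 36.4 in NC, 33.7, 37.3 and 35.4 in NC_E2, 32.3, 31.6 and 34.5 in ICI, 31.8, 36.3 and 32.3 in ICI_E2, 35.3, 33.9 and 39.3 in Tamo and 30.7, 30.6 and 33.3 in Tamo_E2. The difference of differences was -1.24 ± 0.12, adjusted p = 2.40e-05. Acat2 followed (-1.06 ± 0.25, adjusted p = 0.0227; -1.16 without the SH and -0.97 without the SH_E2 libraries, adjusted p 0.18 and 0.222), with 17.4 and 13.7 FPKM in the replicate 1 libraries of SH and SH_E2, 38.4 to 47.6 in the other 4 SH arm libraries and 21.6 to 33.8 (median 29.5) in replicate 1 of the other arms. Mvk (-0.92 ± 0.13), Idi1 (-0.68 ± 0.13) and Fdps (-0.48 ± 0.11) were called, and Pmvk was not (-0.41 ± 0.14, adjusted p = 0.127). For Idi1 this came on top of a fall elsewhere: 17.4 and 17.3 FPKM in the SH arm's replicate 1, 29.1 to 39.5 (median 33.9) in replicate 1 of the other arms.

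Of the sterol branch Dhcr7 (-0.96 ± 0.081, adjusted p = 7.18e-06) and Nsdhl (-0.91 ± 0.12, adjusted p = 5.39e-04) had the steepest difference. Dhcr7 read 5.77 and 6.09 FPKM in the SH arm's replicate 1 and 17.1 to 18.5 in its replicates 2 and 3, which lay within the 14.6 to 19.8 (median 18.2) of replicates 2 and 3 elsewhere. Cyp51 read 54.8, 129 and 130.1 in SH and 57.2, 124 and 126 in SH_E2, against 110.4, 136 and 146 in NC and 93.8, 137 and 141 in NC_E2, and in replicate 1 of the other arms 93.8 to 110.4 (median 105). Its difference of differences was -0.79 ± 0.077, adjusted p = 2.40e-05. Hsd17b7 (-0.76), Lss (-0.74), Msmo1 (-0.58), Sqle (-0.55) and Sc5d (-0.38) were also called. Outside the SH arm Sqle differed in replicate 1 by -0.004 ± 0.055, adjusted p = 0.961. It read 23.4, 33.5 and 32.98 FPKM in SH and 21.9, 33.2 and 29.2 in SH_E2, and 27.2 to 35.5 in the 22 libraries other than replicate 1 of SH and SH_E2. Fdft1 (-0.60 ± 0.27, adjusted p = 0.259), Ebp (-0.28 ± 0.13, adjusted p = 0.285) and Tm7sf2 (0.42 ± 0.19, adjusted p = 0.292) were not called.

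Insig1, the retention factor, read 23.4, 56.3 and 43.9 FPKM in SH and 21.5, 50.95 and 41.4 in SH_E2, against 49.7, 72.5 and 58.6 in NC and 41.6, 67.4 and 51.5 in NC_E2. In every group replicate 1 was the lowest and replicate 2 the highest, and in the SH arm replicate 1 was lower still (-0.71 ± 0.066, adjusted p = 2.06e-05). Srebf2 (-0.38 ± 0.25, adjusted p = 0.491), Insig2 (-0.17 ± 0.10) and Scap (0.21 ± 0.13) were not called. Stard4 was lower (-0.66 ± 0.080, adjusted p = 2.02e-04) at 31.9 and 33.5 FPKM, while the SH arm's other libraries held 52.5 to 61.4. Soat1 was not called (-0.25 ± 0.083, adjusted p = 0.105).

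None of the LXR genes was called in this comparison by edgeR, DESeq2 or limma, and 2 had an unadjusted p under 0.05 by each tool. Abcg1 differed by -0.20 ± 0.13, adjusted p = 0.522: its replicate 1 libraries, 3.29 FPKM in SH and 3.46 in SH_E2, lay just under the 3.49 to 3.95 of the other 4 libraries of that arm. Apoe read 16.05, 9.298 and 8.49 FPKM in SH and 19.97, 10.3 and 8.32 in SH_E2, 14.1, 8.09 and 9.76 in NC and 11.1, 8.02 and 7.22 in NC_E2. Its 2 highest libraries of the 24 were thus replicate 1 of SH_E2 and SH, but the difference of differences missed the threshold (0.77 ± 0.27, adjusted p = 0.131), as did that of Nr1h2 (0.34 ± 0.11, adjusted p = 0.0893). Nr1h2 read 18.03, 12.9 and 11.5 FPKM in SH and 18.03, 11.3 and 12.1 in SH_E2, and replicate 1 of the other arms 13.7 to 19.6 (median 16.5). Mylip (-0.28 ± 0.30) and Lpcat3 (-0.11 ± 0.068) were not called either.

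For 19 members, 16 of them among the 18 synthesis genes, both replicate 1 libraries of the SH arm lay below all the other 22 libraries, where 6.48% of all genes tested did. As a share of the median of the other 22 libraries, the mean of these libraries was lowest for Hmgcs1 (29.4%), Idi1 and Dhcr7 (33.5% each), Nsdhl (34.6%), Hsd17b7 (36.3%) and Mvk (36.7%), and among the 16 synthesis genes highest for Sqle (70.7%). The exceptions in the synthesis genes were Tm7sf2 and Ebp. The 2 libraries held 42.1 M (SH_E2, the lowest total of the 24) and 54.0 M (SH) estimated counts. That SH_E2 library also had the fewest detected genes of the 24, 18637. The mitochondrial shares of the 2 libraries, 4.804% and 5.18%, lay within the range of the rest. The part of depth in the result was not tested. The SH arm's replicates 2 and 3 lay within the range of replicates 2 and 3 of the other arms for each of the following 3 genes: Hmgcs1 had 58.5 to 70.02 FPKM against 49.4 to 75.5 (median 65.1), Mvk 10.4 to 11.9 against 9.18 to 12.3 (median 11.3), and Nsdhl 34.4 to 37.8 against 30.9 to 41.2 (median 37.1). For Msmo1, by contrast, they reached lower, 48.04 to 58.5 against 53.4 to 76.6 (median 69.2). Msmo1 was not alone in this. Insig1 had 41.4 to 56.3 against 51.5 to 72.5, and Scap 4.92 to 5.46 against 6.404 to 9.67. Fdps, Fdft1, Mvd, Lss, Sc5d, Srebf2 and Soat1 also had their lowest value below the range elsewhere. Pmvk, Ebp, Insig2, Stard4 and Abcg1 had their highest value above it.

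**Figure D4:**
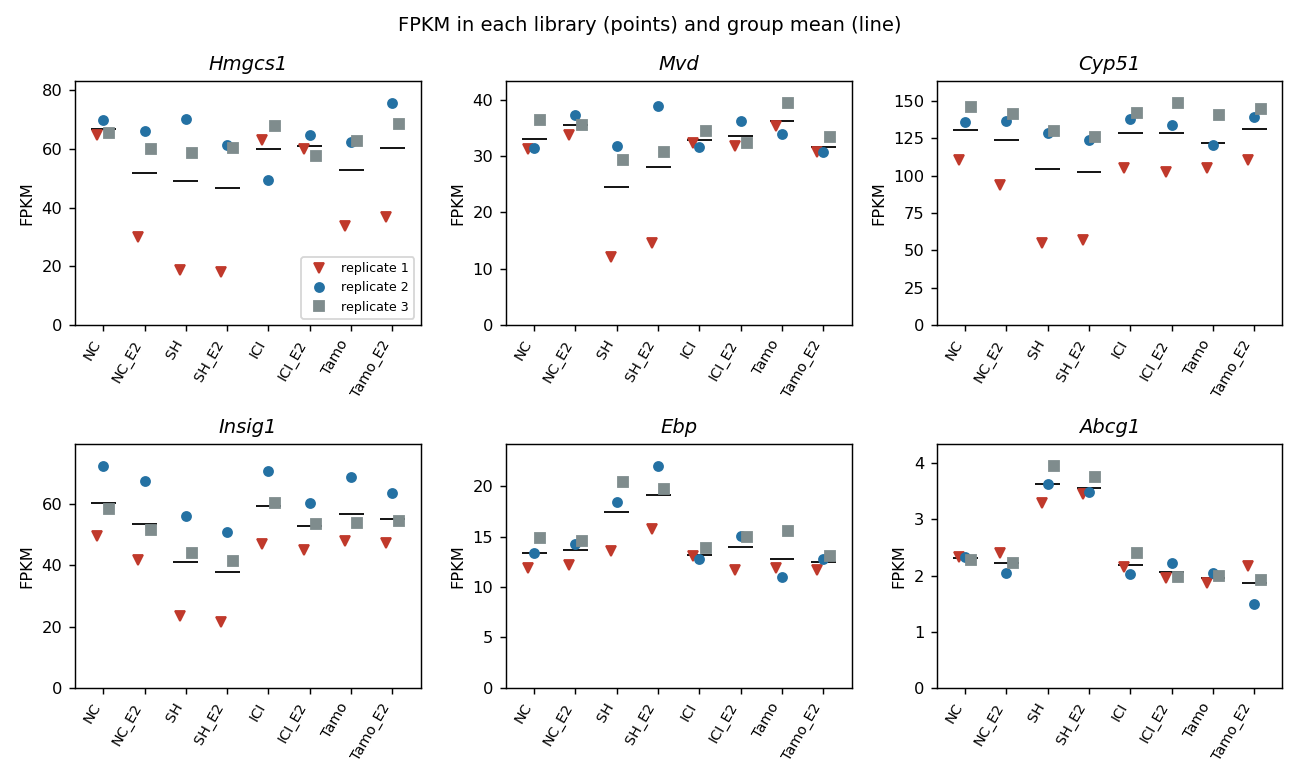
Each panel gives the FPKM (y axis, from 0) of 1 gene in the 8 groups (x axis), with 1 point per library by replicate number and a line at the group mean. Hmgcs1, Mvd, Cyp51 and Insig1 are lowest in the replicate 1 libraries of SH and SH_E2, while Ebp and Abcg1 are raised in the SH arm.

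**Figure D5:**
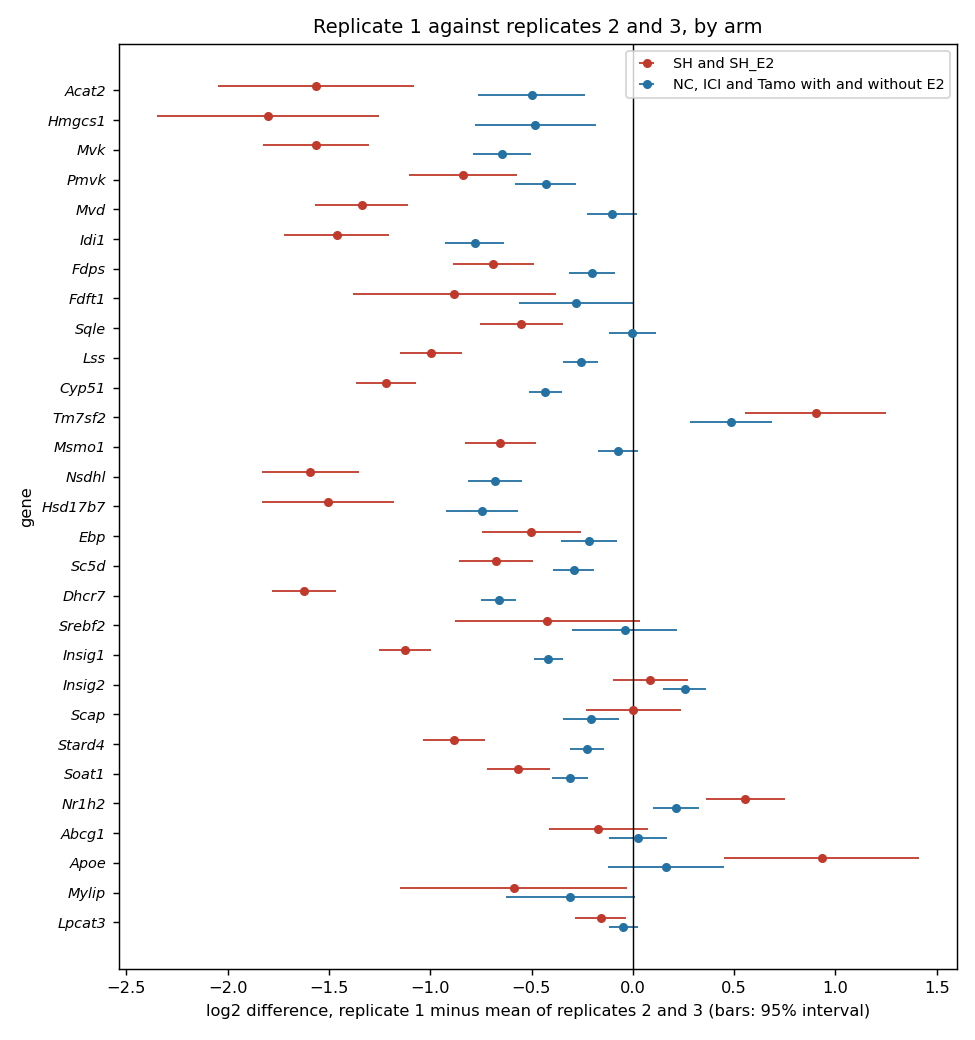
The x axis gives the log2 difference of replicate 1 from the mean of replicates 2 and 3, with 95% intervals, for the 29 tested genes on the y axis, in the SH arm (red) and in the other arms (blue). The red points of Hmgcs1, Mvd, Acat2, Dhcr7, Mvk and Nsdhl lie furthest to the left of their blue points.

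Other sterol genes were read from a wider list. Of 42 further genes of sterol supply, regulation, trafficking and catabolism, 34 passed the filter. In SH against NC over both conditions 7 were called, 3 higher and 4 lower, with a median of 0.017, a share close to the 20.7% of all genes. Osbpl2, an oxysterol-binding protein relative, was lower (-1.03 ± 0.28, adjusted p = 0.0111), Acss2, which makes acetyl-CoA from acetate, was higher (0.97 ± 0.11, adjusted p = 2.82e-06), Rnf139, a sterol-responsive ubiquitin ligase, was higher (0.75 ± 0.074, adjusted p = 4.61e-07) and Lipa, the lysosomal lipase, was lower (-0.54 ± 0.083, adjusted p = 8.29e-05). Acss2 read 4.28, 4.83 and 4.21 FPKM in SH and 4.53, 4.99 and 4.003 in SH_E2 against 2.16, 2.199 and 2.27 in NC and 2.37, 2.31 and 1.89 in NC_E2, with no overlap and no drop in replicate 1. In replicate 1 against replicates 2 and 3, 20 of 34 were called, 12 higher and 8 lower, with a median of 0.0013, where 44.1% of all genes were called (22.6% higher, 21.5% lower); among the largest were Erlin1 (0.86), Osbpl2 (0.85) and Hsd3b7 (-0.53). For the SH arm's extra difference in replicate 1, 4 of 34 were called (4.33% of all genes): Soat2, the second cholesterol esterifying enzyme (0.98 ± 0.090, adjusted p = 1.94e-05), Scarb1, a lipoprotein receptor (-0.51 ± 0.074, adjusted p = 0.001), Acly, which makes cytosolic acetyl-CoA (-0.45 ± 0.090, adjusted p = 0.00856) and Aacs, which activates acetoacetate (-0.24 ± 0.056, adjusted p = 0.0192). Between replicates 2 and 3, 8 of 34 were called, 3 higher and 5 lower (19.4% of all genes).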

How the data were processed

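RNA was sequenced from 24 P815 libraries in 8 groups of 3, grouped by the sample labels. Per the submitters' processing notes, cutadapt and HISAT2 were used with the genome build GRCm38, with no versions; the quantifier is not given in the sources used here. In 1 table the authors deposited FPKM values and, per the file headers, unnormalized counts per gene. The deposited counts were treated as estimated counts (expected counts), because a value of 4 makes up 16.2% of all counts from 1 to 40 and 8 another 9.11%, so 1 fragment may be worth several of them. FPKM was used for levels and counts for tests.

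Genes with 1 FPKM or more in at least 3 libraries (12183) were tested with edgeR 4.0.16 (R 4.3.3; TMM scaling, quasi-likelihood, 1 coefficient per group, no block, two-sided tests, Benjamini-Hochberg adjustment over all genes). The comparisons by replicate number added that number to the groups. DESeq2 1.42.0 and limma 3.58.1 on log2(FPKM + 1) were alternatives, and the scripts were tested on simulated data. The 36 same-numbered pairs of libraries in compared groups deviated together (r from 0.113 to 0.572; 80 of 84 over all pairs of groups were above 0.1), so blocked values are printed where they change a call. The pairing rests on these data, not on the labels. The 31 genes, the lists and the comparisons were chosen with earlier results of these data known, and the SH arm's replicate 1 comparison and the fits on replicates 2 and 3 alone were added after the data were seen. All 31 genes could be named; values are given by library, or as ranges over sets of libraries, for genes that were called and for Hmgcs1, Idi1, Sqle, Insig1, Stard4, Srebf2, Abca1, Abcg1, Apoe and Nr1h2, and up to 4 other sterol genes per comparison are named by size of change; a gene that this rule would name is not reported here. Exon overlaps are from GENCODE M21 on GRCm38; the strand protocol is not stated.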

Additional observations from a re-analysis of the deposited data

Results flagged for a closer look

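In 16 genes the difference of replicate 1 from replicates 2 and 3 in the SH arm was tested against that in the other arms and passed (edgeR, adjusted p under 0.05), always lower in the SH arm. The log2 differences were -1.32 for Hmgcs1, -1.24 for Mvd, -1.06 for Acat2, -0.92 for Mvk, -0.68 for Idi1 and -0.48 for Fdps in the mevalonate branch. From squalene to sterol they were -0.96 for Dhcr7, -0.91 for Nsdhl, -0.79 for Cyp51, -0.76 for Hsd17b7, -0.74 for Lss, -0.58 for Msmo1, -0.55 for Sqle and -0.38 for Sc5d. Insig1 (-0.71) and Stard4 (-0.66) complete the set. The comparison was added after the data were seen, and each SH arm group holds 1 replicate 1 library. These libraries deviated together (r = 0.572), so they may not be independent.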

How the results depend on the processing

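With 3 libraries a group, differences between single groups had 95% intervals of about 0.55 log2 units on either side (median over the members, without the block). The width differed by gene, and smaller changes may have been missed. Library totals of 42.1 to 68.8 M leave Abca1 and Nr1h3 too low to test. Of the member counts recomputed under alternatives 406 stayed within 1.5 times and 27 did not; of the values of single genes 1107 kept their direction and side of the threshold, 136 lost and 5 gained a call, and 3 changed sign. The 406 include E2, ICI and Tamo comparisons that had 0 calls and stayed at 0, so this total does not show how stable the comparisons with calls are. The causes of these changes were not tested.

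For SH against NC without E2 (1 called) the count was 11 with the replicate block, 2 with DESeq2 and 0 when only the libraries compared were fitted (fewer samples). With E2 (2 called) it was 7 with the block, and 1 with no filter, with only the libraries compared or with replicates 2 and 3 alone. Over both (6 called) it was 17 with the block and 3 with no filter. Leaving out 1 library in turn gave 1 to 2, 1 to 2 and 3 to 7 calls, and 0 in every E2, ICI and Tamo comparison. The replicate block changed no call among the members in those comparisons. Stard4 in SH against NC over both (-0.095) turned to 0.067 with replicates 2 and 3 alone, 0.034 without SH replicate 1 and 0.017 without SH_E2 replicate 1; over all 1-library omissions it ran from -0.19 to 0.034.

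Replicate 1 against replicates 2 and 3 (25 called) gave 15 in the libraries without E2. With no filter 20 of the 25 kept their call, and Apoe, Msmo1, Mvd, Mylip and Scap lost it. Replicate 2 against 3 (3 called) gave 5 with DESeq2, 1 with no filter, 0 in the libraries without E2, 0 in those with E2, 12 without the SH arm, 0 without the NC arm, 1 without the ICI arm and 1 without the Tamo arm. The SH arm's extra difference in replicate 1 (16 called) gave 8 without the SH and 9 without the SH_E2 libraries.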
